A study of Caenorhabditis elegans with 12 samples.

Results

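The genes described here are the Polo-like kinase genes of Caenorhabditis elegans, plk-1, plk-2 and plk-3, in whole animals at the L4 larval stage. plk-1 and plk-2 were included as family members, while plk-3 was chosen by its measured values, because it fell to the floor of the arrays in a single strain. The levels of plk-3 are therefore given as a description, with no test. The 3 genes had 5 probe sets with a single gene symbol, out of 20766 such probe sets for 17118 genes on the array, and all 5 probe sets passed the filter on dim signals.

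Polo-like kinases are serine/threonine kinases with a kinase domain at the amino end and a Polo-box domain at the carboxyl end. The Polo-box domain docks on phosphorylated partners and so places the kinase on centrosomes, kinetochores, nuclear pores or meiotic chromosomes. In C. elegans, PLK-1 drives entry into mitosis, spindle assembly, nuclear envelope breakdown and embryonic polarity, and its close relative PLK-2 acts mainly in the germ line, where it promotes chromosome pairing and synapsis in meiosis.

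RNA of 12 pools of 3000 worms was measured on Affymetrix arrays, with 3 pools for each of 4 strains. WT was N2. The strain labelled crh-1 null carries the allele nn3315 of crh-1, the gene of the transcription factor CREB, and the strain labelled tax-6 null is RB1667 with the allele ok2065 of tax-6, the gene of the catalytic subunit of calcineurin. The strain labelled aak-2 o/e is AGD383, which is N2 with the transgene uthIs202: the promoter of aak-2c drives a fragment of the AMPK catalytic subunit AAK-2 (residues 1 to 321) fused to Tomato and followed by the unc-54 3' untranslated region, with rol-6 as marker. Each altered strain is thus a single line, so the named allele or transgene cannot be told apart from other differences of that line. One label field of the aak-2 o/e samples reads aak-2 null, against their titles and strain field. The title of the series names AMPK, calcineurin, CRTC-1 and CREB as acting in longevity, and the design sets the altered strains beside WT.

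All levels below are deposited log2 values. A value under 4 is treated as not above background, since the lowest value in the table was 2.11 and 29.8% of all values lay within 0.1 of it. Arrays of a strain correlated at r = 0.997 to 0.998 in WT and in crh-1 null, and at 0.996 to 0.997 in aak-2 o/e. The tax-6 null arrays gave 0.99 to 0.997, with replicate 1 standing apart; these are correlations across probe sets, which are not independent replicates. The targeted genes did not all follow their labels. The detected crh-1 probe set averaged 8.62 in crh-1 null against 7.16 in WT, the tax-6 probe set lay below 4 on average in every strain, and the probe sets of aak-2 averaged 8.59 and 6.44 in aak-2 o/e against 9 and 6.91 in WT. Where these probes lie relative to the deletions and the transgene fragment was not analysed here, and each strain goes by its label.

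plk-3 was bright in 3 strains and dark in the fourth, aak-2 o/e. Its only probe set, 191208_s_at, read 10.02, 10.12 and 10.24 in WT. It read 9.85, 9.59 and 9.85 in crh-1 null, and 9.58, 10.33 and 10.2 in tax-6 null. In aak-2 o/e it read 3.67, 3.26 and 3.22, below 4 on 3 of 3 arrays. The lowest of the other 9 arrays lay 5.91 above the highest aak-2 o/e array. Means ± SD (n = 3) were 10.13 ± 0.11 in WT, 10.04 ± 0.4 in tax-6 null, 9.76 ± 0.15 in crh-1 null and 3.39 ± 0.25 in aak-2 o/e.

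Because every aak-2 o/e array lay below 4, the size of this difference is given as a bound: the mean of the brighter strain set against a level of 4. So computed, plk-3 was at least 70-fold lower in aak-2 o/e than in WT, at least 54.3-fold lower than in crh-1 null and at least 65.7-fold lower than in tax-6 null. In the order of the levels, WT and tax-6 null overlapped, as did tax-6 null and crh-1 null. The crh-1 null arrays all lay below the WT arrays, with a difference of means of -0.36 on the log2 scale. This size was small beside the gap to aak-2 o/e. Such a lack of overlap was common, since it held for 43% of all genes between crh-1 null and WT. The difference of means between tax-6 null and WT was -0.09, and 0.14 without tax-6 null replicate 1, so its direction rested on that array. The suffix _s of the probe set means that its probes can bind more than a single transcript. Both plk-1 probe sets and the plk-2 probe set 185928_s_at carry this suffix too. Whole animals were measured, so fewer cells that express a gene cannot be told apart from less RNA per cell.

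**Figure D1:**
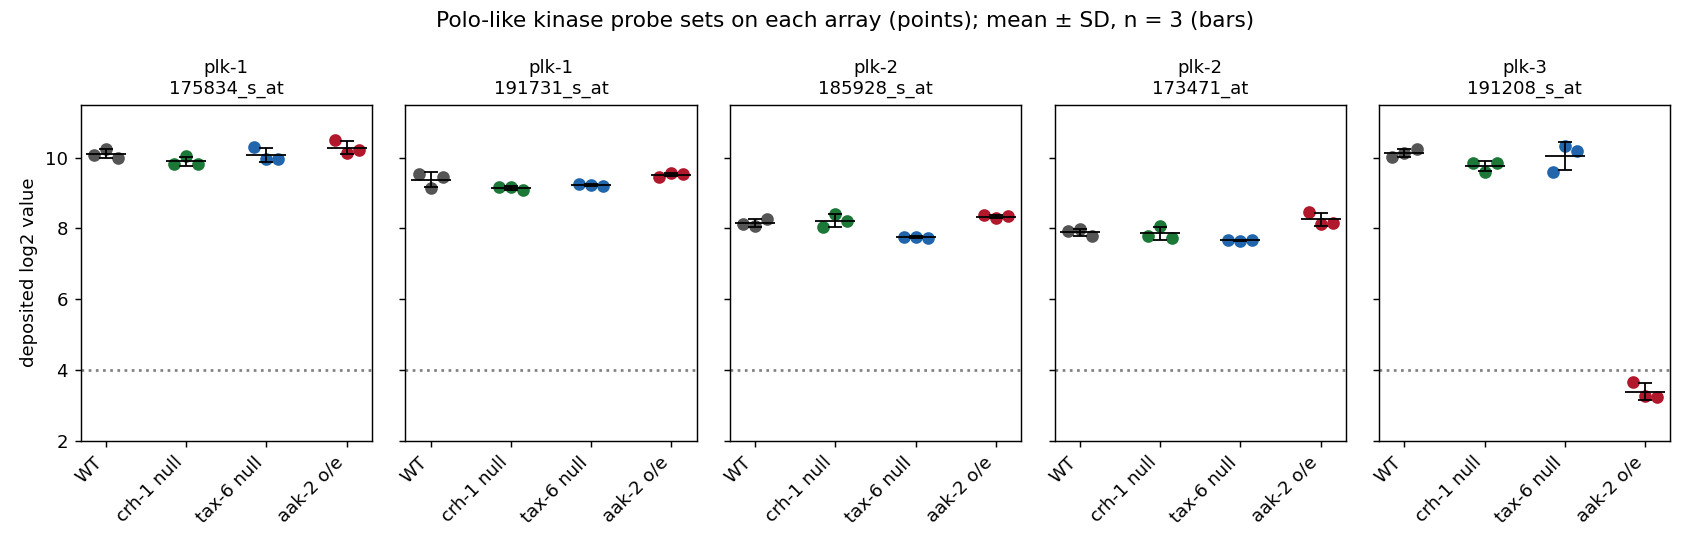
Deposited log2 values (vertical axis) of the 5 Polo-like kinase probe sets on each of the 12 arrays, by strain; points are arrays, black bars are the mean ± SD (n = 3) and the dotted line marks 4. The plk-3 arrays of aak-2 o/e lie between 3.22 and 3.67, while its other arrays lie between 9.58 and 10.33.

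The genes next to plk-3 were taken by position: the 5 tested genes on each side in the RefSeq gene table of WBcel235, used only for gene order. The 2 genes that directly follow plk-3 in that order were lower in aak-2 o/e as well. F55G1.6, the next gene, read 8.82, 8.72 and 8.71 in WT and 5.41, 5.17 and 5.38 in aak-2 o/e. slc-25A18.2, a mitochondrial carrier gene of solute carrier family 25 and the gene after it, read 6.62, 6.77 and 6.69 in WT and 3.68, 3.34 and 4.49 in aak-2 o/e. For neither gene did the aak-2 o/e arrays overlap those of any other strain.

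F55G1.6 changed by -3.43 ± 0.11 (log2 change ± SE from limma, 3 arrays against 3), a 10.8-fold fall (adjusted p = 6.86e-09, lower on 3 of 3 arrays). slc-25A18.2 changed by -2.86 ± 0.25 (adjusted p = 5.89e-06, lower on 3 of 3 arrays). With 2 of its 3 aak-2 o/e arrays below 4, the size of that fall is not exact and no fold is given. Only RNA was measured, so a change of the genome of this line at these adjacent genes cannot be told apart from a change in their RNA levels. Neither gene passed in crh-1 null (-0.21 and -0.13, adjusted p = 0.238 and 0.819) or, with 0.08 and -0.29, in tax-6 null (adjusted p = 0.583 and 0.39).

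Beyond these 3 genes the changes were smaller or not called. pycr-4, a pyrroline-5-carboxylate reductase gene and the next in order, stood at 8.95 ± 0.27 in aak-2 o/e and 9.13 ± 0.1 in WT (change -0.18 ± 0.14, adjusted p = 0.376). F55G1.7, the gene before plk-3, lay near 4 in every strain, where a fall could not be seen, and stood at 4.49 ± 0.08 in aak-2 o/e against 4.24 ± 0.34 in WT (change 0.24 ± 0.17, adjusted p = 0.309). rod-1, a kinetochore gene, and the histone gene his-61 followed pycr-4 and did not pass (0.3 ± 0.17 and 0.16 ± 0.11, adjusted p = 0.207 and 0.284). On the other side F13B6.3 (-0.09 ± 0.16) and the testin gene tes-1 (-0.47 ± 0.18) did not pass (adjusted p = 0.709 and 0.0681). F13B6.1 and F13B6.2 fell by 0.63 and 0.48 on the log2 scale (adjusted p = 0.0179 and 0.0372). The F13B6.1 call ended under 5 of 21 alternatives and the F13B6.2 call under 8, 4 of them single arrays left out in each case (adjusted p up to 0.0766 and 0.14).

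In all, 4 of the 10 neighbours of plk-3 were lower and 0 higher in aak-2 o/e, where 33.5% of all 10365 genes tested were called, 14.2% higher and 19.3% lower. In crh-1 null 2 were lower and 0 higher (20.6% of all genes called, 9.88% higher and 10.7% lower). In tax-6 null 1 was lower and 2 were higher (45% called, 18.7% higher and 26.3% lower). Without WT replicate 1 the 4 lower neighbours in aak-2 o/e became 2. The 2 in crh-1 null became 0 when replicate 3 of either WT or crh-1 null was left out. Among the 10 neighbours of plk-2 in aak-2 o/e, 2 were lower (0 without aak-2 o/e replicate 1) and the lowest change was -0.57. Among those of plk-1, 2 were lower and 1 higher, and changes ran from -0.75 to 1.48. Without tax-6 null replicate 1, 5 neighbours of plk-1 were lower. No tested neighbour of plk-1 or plk-2 thus changed as steeply downward in that strain as the pair after plk-3.

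**Figure D2:**
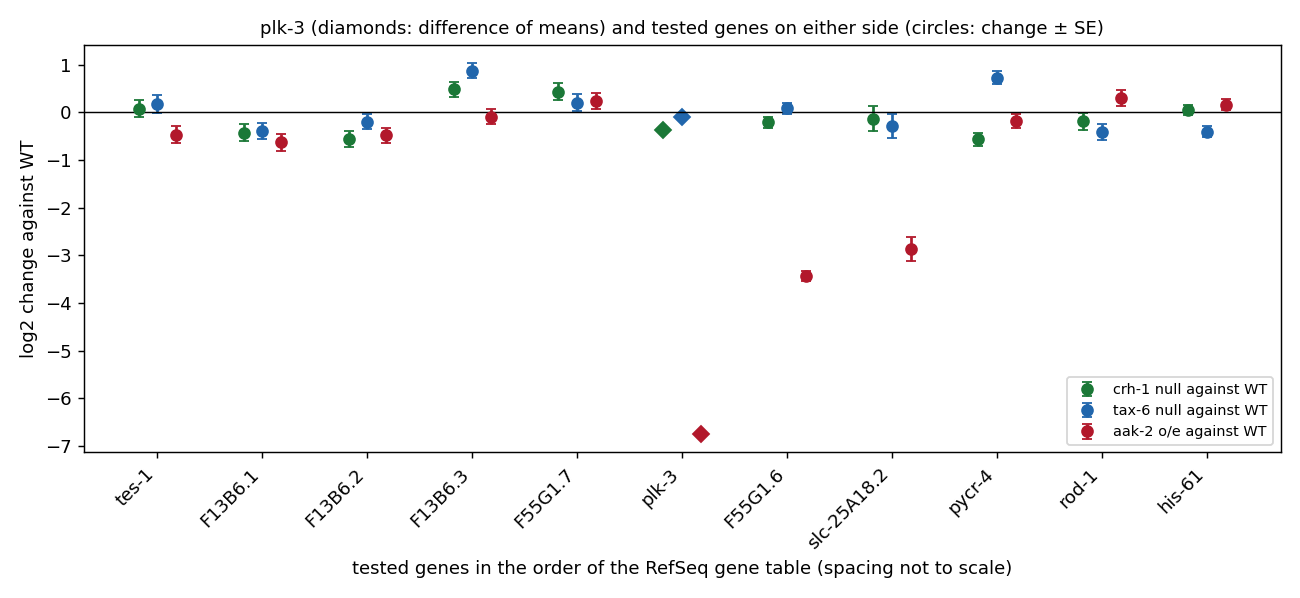
Log2 change against WT (vertical axis) of plk-3, as a difference of means (diamonds), and of the 5 tested genes on each side of it, as change ± SE (circles), in gene order (horizontal axis). In aak-2 o/e the changes of F55G1.6 and slc-25A18.2 lie at -3.43 and -2.86, while F55G1.7 and pycr-4 lie at 0.24 and -0.18.

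Few genes lay below 4 with a clear gap in a single strain. A gene was counted when its 3 arrays of that strain lay below 4 and its 9 other arrays lay at least 1 above the highest of these. The rule did not ask the 9 other arrays to lie above 4. In aak-2 o/e this held for 6 of 10365 genes (0.0579%). It held for 29 genes of crh-1 null, 7 of tax-6 null and 7 of WT. With a gap of at least 2 the counts were 2, 14, 1 and 2. The other genes of aak-2 o/e were the F-box gene fbxa-193, the BTB and MATH domain genes bath-7, bath-24 and bath-1, and K09C4.5.

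plk-3 had the widest gap of the 6, 5.91, followed by fbxa-193 with 3.22 and bath-7 with 1.79. fbxa-193 went from 6.2 in WT to 2.63 in aak-2 o/e, at least 4.58-fold lower, and bath-7 from 5.6 to 2.56, at least 3.04-fold lower. For bath-24 the bound was 2.97-fold and for bath-1 2-fold. K09C4.5 averaged 3.87 in WT and gives no fold. It read 3.98, 3.84 and 3.84 in crh-1 null, so by the threshold of 4 its signal was not lost in aak-2 o/e alone. These 6 genes were picked for this pattern, so no test of their fall in aak-2 o/e is given.

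**Figure D3:**
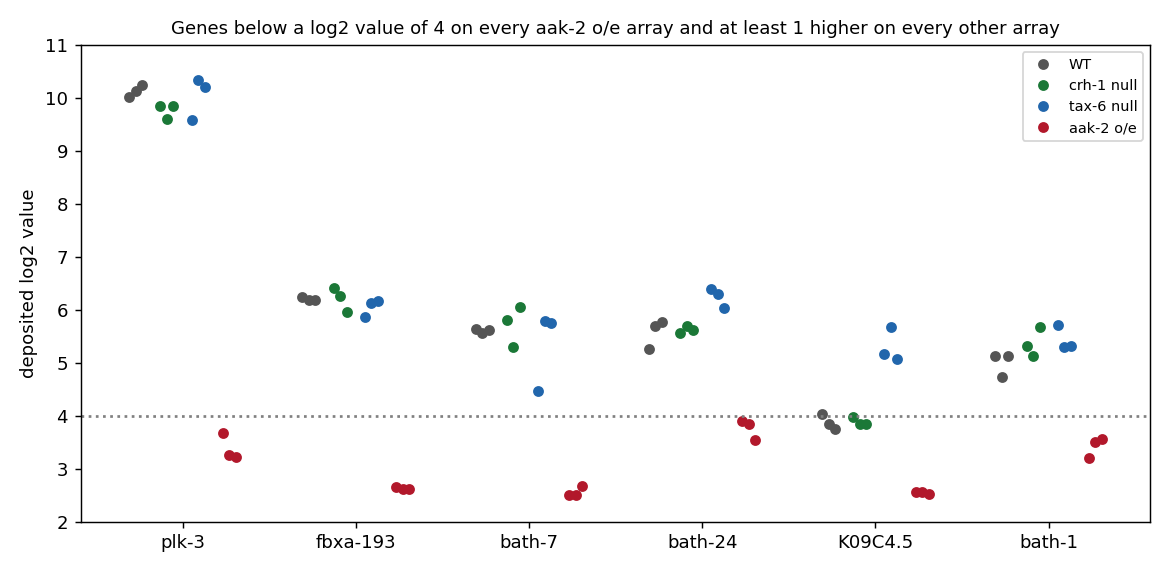
Deposited log2 values (vertical axis) on each array, by strain, of the 6 genes that lay below 4 (dotted line) on every aak-2 o/e array and at least 1 higher on every other array. The plk-3 arrays of aak-2 o/e lie at 3.22 to 3.67 and its other arrays reach 10.33.

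Likeness was measured as Pearson's r over the 12 arrays, with 1 probe set per gene; since 3 arrays share each strain, a high r to plk-3 reflects the step between aak-2 o/e and the rest. The 8 genes most like plk-3 were fbxa-193 (r = 0.994), its neighbour F55G1.6 (0.993), C16C8.4 (0.987), fbxa-106 (0.984), F52C6.2 (0.981), bath-2 (0.98), mfsc-1 (0.98) and bath-5 (0.978). From WT to aak-2 o/e, F52C6.2 went from a mean of 8.33 to 5.32, and bath-5 from 8.3 to 5.24. mfsc-1 went from 9.41 to 7.19.

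Several of these genes lie together. In the gene order, bath-7, bath-2, F52C6.2, bath-1, bath-5 and bath-24 fall within a run of 27 protein-coding genes on a chromosome other than that of plk-3. In aak-2 o/e the large falls of the run were those of these 6 genes. Each had been picked above for a fall there or for likeness to plk-3, so their falls are not set against all genes. The other tested genes of the run had not been picked. Of them, math-20 was 0.53 higher on the log2 scale in aak-2 o/e. F52C6.3, dim in WT at 3.64, was 0.09 higher, and cya-2, dim in WT at 3.98, changed by -0.45. A fall could hardly be seen in these 2 dim genes, so math-20 alone showed a gene of the run that did not fall. Only 9 of the 27 genes of the run were tested, and whether the run moved together was not tested. In tax-6 null 2 of the 9 tested genes were higher and 0 lower (18.7% and 26.3% of all genes), and in crh-1 null 0 were called (20.6% of all genes). The run was outlined after these values were seen, so its counts are a description.

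plk-1 differed little between the strains. The probe set that represents it, 175834_s_at, read 10.09, 10.25 and 9.99 in WT, 9.83, 10.05 and 9.83 in crh-1 null, 10.29, 9.96 and 9.97 in tax-6 null, and 10.49, 10.15 and 10.21 in aak-2 o/e. The other, 191731_s_at, read 9.53, 9.14 and 9.46 in WT, 9.17, 9.17 and 9.08 in crh-1 null, 9.26, 9.24 and 9.2 in tax-6 null, and 9.46, 9.57 and 9.54 in aak-2 o/e. Every altered strain overlapped WT on both probe sets. By both, the order of the means ran from aak-2 o/e through WT and tax-6 null down to crh-1 null.

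Against WT, no call was made for plk-1 in any strain. On 175834_s_at the change was -0.21 in crh-1 null (95% interval -0.5 to 0.08, adjusted p = 0.346), -0.04 in tax-6 null (-0.33 to 0.26, adjusted p = 0.853) and 0.17 in aak-2 o/e (-0.12 to 0.46, adjusted p = 0.366). On the other it was -0.24, -0.14 and 0.15 (adjusted p = 0.176, 0.325 and 0.345). Between the ends of the order, plk-1 was 1.3-fold higher in aak-2 o/e than in crh-1 null by both probe sets (0.38 ± 0.13 and 0.38 ± 0.11, adjusted p = 0.0375 and 0.0145, higher on 3 of 3 arrays), in a comparison that called 46.4% of genes. On 175834_s_at that call ended without any single one of WT replicate 1, crh-1 null replicates 1 and 3 and aak-2 o/e replicates 1 and 3 (adjusted p = 0.0518, 0.11, 0.11, 0.133 and 0.0542), and when dim probe sets were kept (adjusted p = 0.0607).

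By the means of both probe sets, plk-2 was lowest in tax-6 null and highest in aak-2 o/e. Its probe set 185928_s_at read 8.12, 8.06 and 8.28 in WT, 8.05, 8.41 and 8.2 in crh-1 null, 7.77, 7.75 and 7.72 in tax-6 null, and 8.38, 8.29 and 8.34 in aak-2 o/e. Its probe set 173471_at read 7.92, 7.98 and 7.79 in WT, 7.79, 8.06 and 7.73 in crh-1 null, 7.68, 7.64 and 7.67 in tax-6 null, and 8.47, 8.13 and 8.16 in aak-2 o/e. On both, every tax-6 null array lay below every WT array and every aak-2 o/e array above them, while crh-1 null overlapped WT. Arrays failed to overlap for 54.5% of all genes between tax-6 null and WT, for 52.5% between aak-2 o/e and WT and for 43% between crh-1 null and WT.

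The difference of plk-2 between the ends of that order held on both probe sets. In aak-2 o/e it was 1.5-fold higher than in tax-6 null (0.59 ± 0.11 on 185928_s_at and 0.59 ± 0.12 on 173471_at, adjusted p = 0.000834 and 0.00189, higher on 3 of 3 arrays; 50.1% of genes were called). Against WT each direction was called by a single probe set. In tax-6 null plk-2 fell by 0.4 on the log2 scale on 185928_s_at (SE 0.11, adjusted p = 0.011), whereas the other gave -0.23 ± 0.12 (adjusted p = 0.155). In aak-2 o/e 173471_at gave 0.36 ± 0.12 (adjusted p = 0.0465) and 185928_s_at 0.18 ± 0.11 (adjusted p = 0.227). In crh-1 null the changes were 0.07 ± 0.11 and -0.04 ± 0.12 (adjusted p = 0.776 and 0.911). Against crh-1 null, which called 37.9% of genes in tax-6 null, plk-2 was lower in tax-6 null on 185928_s_at (-0.47 ± 0.11, adjusted p = 0.00573). It did not pass on 173471_at (-0.19 ± 0.12, adjusted p = 0.248). Between aak-2 o/e and crh-1 null, where 46.4% of genes were called, the arrays overlapped on 185928_s_at (0.12 ± 0.11, adjusted p = 0.421). On 173471_at plk-2 was higher in aak-2 o/e than in crh-1 null (0.39 ± 0.12, adjusted p = 0.0224).

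**Figure D4:**
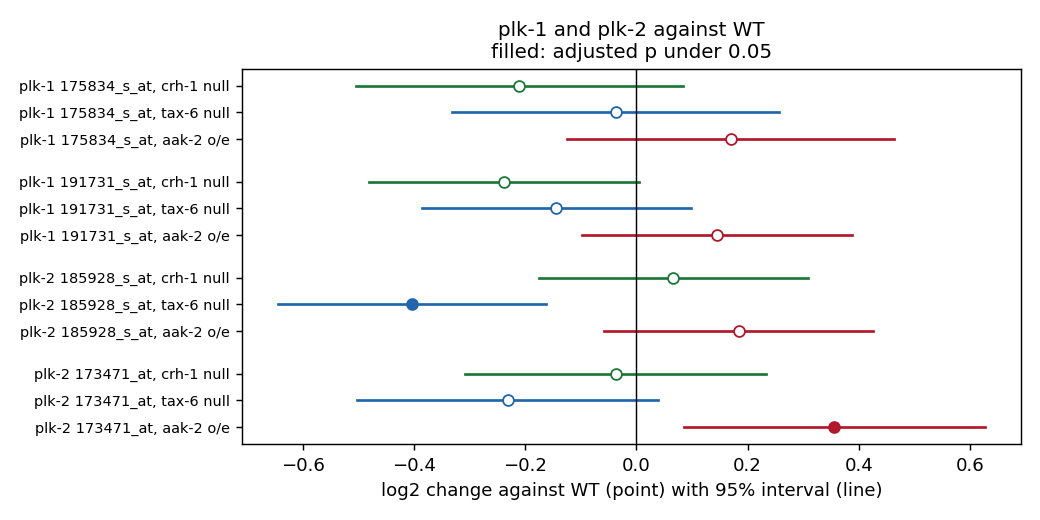
Log2 change against WT (horizontal axis) of the plk-1 and plk-2 probe sets in each altered strain, with 95% intervals from limma (lines); filled points passed an adjusted p of 0.05. Of 12 points, only plk-2 in tax-6 null on 185928_s_at (-0.4) and in aak-2 o/e on 173471_at (0.36) are filled.

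The genes most like plk-1 over the 12 arrays were dsh-2, a Dishevelled gene (r = 0.888), dpy-14 (0.879), the Aurora B kinase gene air-2 (0.876) and maph-1.3 (0.865). Picked for this likeness, each of them followed the order of the plk-1 means. air-2, for example, stood at 7.93 in aak-2 o/e, 7.74 in WT, 7.7 in tax-6 null and 7.55 in crh-1 null. Those most like plk-2 were Y71F9AL.12 (r = 0.908), F59A7.8 (0.902), T16G12.1 (0.901) and the mitochondrial ribosomal protein gene mrpl-34 (0.9). T16G12.1 had a wider range than plk-2, from 7.85 in tax-6 null to 9.26 in aak-2 o/e.

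Among genes that activate or bind Polo kinases, the Aurora A kinase gene air-1 and the phosphatase gene gsp-1 fell in tax-6 null. AIR-1, with the Bora protein encoded by spat-1, phosphorylates and activates PLK-1. air-1 went from 10.52 ± 0.07 in WT to 9.76 ± 0.09 in tax-6 null (log2 change -0.76 ± 0.12, adjusted p = 0.00024) and to 10.11 ± 0.12 in crh-1 null (-0.42 ± 0.12, adjusted p = 0.0247), and stood at 10.55 ± 0.18 in aak-2 o/e (0.02, adjusted p = 0.904). The crh-1 null call ended with the replicate block (adjusted p up to 0.111 over all alternatives) and without WT replicate 1 or 2 or crh-1 null replicate 3. spat-1 did not pass in any strain (-0.06, -0.12 and 0.2, in the order crh-1 null, tax-6 null, aak-2 o/e), but passed in aak-2 o/e without replicate 2 of that strain (0.43, adjusted p = 0.024). In the same order gsp-1 changed by -0.44, -0.75 and -0.39 (adjusted p = 0.019, 0.000265 and 0.0244), of which the first and the last were each lost on leaving out WT replicate 1 or 3 or a pair of arrays of the altered strain in turn (adjusted p at most 0.0734 and 0.0784).

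MEX-5 and MEX-6 are related RNA-binding proteins that bind PLK-1 in the early embryo. mex-6 rose in tax-6 null (0.81 ± 0.13, adjusted p = 0.000314) and aak-2 o/e (0.54 ± 0.13, adjusted p = 0.00676), and was lower in crh-1 null (-0.41 ± 0.13, adjusted p = 0.0394, a call that ended under 10 of 21 alternatives). mex-5 did not pass (-0.16, 0.26 and 0.35, in that order again), except in aak-2 o/e without replicate 3 (0.55, adjusted p = 0.0401). cdk-1, the mitotic kinase that primes Polo docking sites, did not pass either (-0.35, -0.32 and 0.14). It passed in tax-6 null without replicate 1 of that strain (-0.48, adjusted p = 0.0289) and with array weights (adjusted p = 0.00803). It passed in crh-1 null with array weights (adjusted p = 0.0292) and with only those strains in the model (adjusted p = 0.0251). Of the 11 genes of this group, 3 fell and 0 rose in crh-1 null, where 10.7% of all genes were lower and 9.88% higher. In tax-6 null 2 fell and 2 rose (26.3% and 18.7% of all genes), and in aak-2 o/e 1 fell and 1 rose (19.3% and 14.2%). The 3 falls in crh-1 null became 1 without any single one of the WT arrays or crh-1 null replicate 2, and 0 without crh-1 null replicate 3. Median changes were -0.16, -0.12 and 0.14, against -0.01, -0.09 and -0.15 for all genes.

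Few meiotic partners of PLK-2 were called. Of 18 pairing centre and synaptonemal complex genes listed, 16 were tested, and chk-2, which directs PLK-2 to pairing centres, was below 4 on all 12 arrays. In crh-1 null 0 passed, where 20.6% of all genes were called (median change -0.03, against -0.01 for all genes). In tax-6 null syp-5 fell (-0.82 ± 0.27, adjusted p = 0.0263) and htp-2 rose (0.36 ± 0.13, adjusted p = 0.0381), and in aak-2 o/e syp-2 fell (-0.41 ± 0.13, adjusted p = 0.0308) and htp-3 rose (0.43 ± 0.14, adjusted p = 0.0317). Each of these 4 calls ended without some single arrays (adjusted p up to 0.136), while without tax-6 null replicate 1 aak-2 o/e gave 3 rises and 3 falls. Of all genes, tax-6 null had 18.7% higher and 26.3% lower, and aak-2 o/e had 14.2% and 19.3%. syp-1, a synaptonemal complex gene, did not pass (-0.03, -0.16 and -0.49), with an SE of 0.42 that does not exclude sizeable changes.

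In the list of centriole and centrosome genes, spd-5, which encodes the scaffold of the pericentriolar material that PLK-1 phosphorylates, rose in aak-2 o/e from 9.68 to 10.91 (1.23 ± 0.16, adjusted p = 0.000112). It was lower in tax-6 null (-0.5 ± 0.16, adjusted p = 0.0249), a call that ended under 6 of 21 alternatives. The mean with its other probe set was 0.61 in aak-2 o/e and -0.25 in tax-6 null. The level of that probe set was not examined, so whether it could show a change is not known. A probe set at the floor would lower such a mean too. zyg-1, the centriole duplication kinase related to Polo kinases, and its partner spd-2 did not pass in any strain, with changes between -0.26 and 0.07. Of 14 genes tested, 1 fell in crh-1 null (10.7% of all genes), 3 fell in tax-6 null (26.3%) and 1 rose in aak-2 o/e (14.2%), with 0 in the other directions. The 3 in tax-6 null became 1 without WT replicate 2 or 3 or tax-6 null replicate 1, and 5 without tax-6 null replicate 2.

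Of 16 mitotic entry genes tested, 5 rose and 0 fell in aak-2 o/e, against 14.2% and 19.3% of all genes. cdc-25.4, of the CDC25 phosphatase family, rose by 1.62 ± 0.15 (adjusted p = 7.36e-06), and the checkpoint kinase gene bub-1, also a kinetochore gene, by 0.54 ± 0.1 (adjusted p = 0.00206). In tax-6 null 3 rose (5 without replicate 1 of that strain) and 2 fell, against 18.7% and 26.3% of all genes, led by cki-1, a cyclin-dependent kinase inhibitor gene (1.18 ± 0.14, adjusted p = 2.81e-05). In crh-1 null 1 rose, cki-1 (0.44 ± 0.14, adjusted p = 0.0382, lost under 7 of 21 alternatives), and 1 fell, air-1. Of 23 kinetochore and passenger genes, 4 rose and 3 fell in aak-2 o/e, so that their called share lay near the 33.5% of all genes. In tax-6 null 1 rose and 3 fell, where 45% of all genes were called, and in crh-1 null 0 passed (20.6% of all genes). The aak-2 o/e counts became 2 rises without WT replicate 1 or 3 or aak-2 o/e replicate 1, and 1 fall without WT replicate 1 or 2. hcp-3, which encodes the centromeric histone, rose in aak-2 o/e (0.53 ± 0.12, adjusted p = 0.00447). In tax-6 null mis-12 fell by 0.8 and knl-3 by 0.37 on the log2 scale (adjusted p = 0.00262 and 0.02), the latter lost without WT replicate 1 or 2 or tax-6 null replicate 3 (adjusted p at most 0.0871).

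Of 15 genes of the nuclear envelope and its pores, where PLK-1 acts at breakdown, 3 fell and 0 rose in aak-2 o/e, a share of falls near the 19.3% of all genes. They included the nucleoporin genes npp-19 (-0.52 ± 0.09, adjusted p = 0.00118) and npp-11 (-0.52 ± 0.13, adjusted p = 0.00769). In tax-6 null 1 fell and 0 rose, against 26.3% and 18.7% of all genes. It was npp-19 again (-0.32 ± 0.09, adjusted p = 0.0161, lost without WT replicate 1 or 3). In crh-1 null 0 passed (20.6% of all genes called).

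Germline markers moved as well, though not in every list and strain. Of 13 oocyte markers, 10 rose in aak-2 o/e and 12 in tax-6 null, while 6 fell in crh-1 null (medians 0.73, 0.87 and -0.51). Of all genes 14.2% were higher in aak-2 o/e, 18.7% were higher in tax-6 null and 10.7% were lower in crh-1 null. Of 20 sperm markers tested, 18 rose in aak-2 o/e and 9 fell in tax-6 null (medians 1.05 and -0.4), where 26.3% of all genes were lower. Of 12 germ cell markers, 2 rose in aak-2 o/e (0 to 4 without single arrays) and 3 fell in tax-6 null (0 to 4). The germ cell medians were -0.11 and -0.17, against -0.15 and -0.09 for all genes. In crh-1 null 0 sperm markers and 0 germ cell markers passed (20.6% of all genes called). The log2 of the summed sperm marker signal lay between 17.24 and 17.45 in WT. It lay between 17.06 and 17.28 for crh-1 null, 17.39 and 17.53 for tax-6 null, and 18.11 and 18.15 for aak-2 o/e. The aak-2 o/e arrays overlapped no other strain in it. In the order WT, crh-1 null, tax-6 null, aak-2 o/e, the germ cell sums lay at 13.41 to 13.49, 13.37 to 13.47, 12.71 to 13.43 and 13.77 to 13.97. The oocyte sums lay at 11.38 to 11.73, 10.73 to 10.87, 12.97 to 13.2 and 12.66 to 13.03. Of the markers with a probe set, 1 sperm marker and 0 others were below 4 on every array. The part of the germline markers in the levels of plk-1, plk-2, plk-3 and the lists was not tested.

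**Figure D5:**
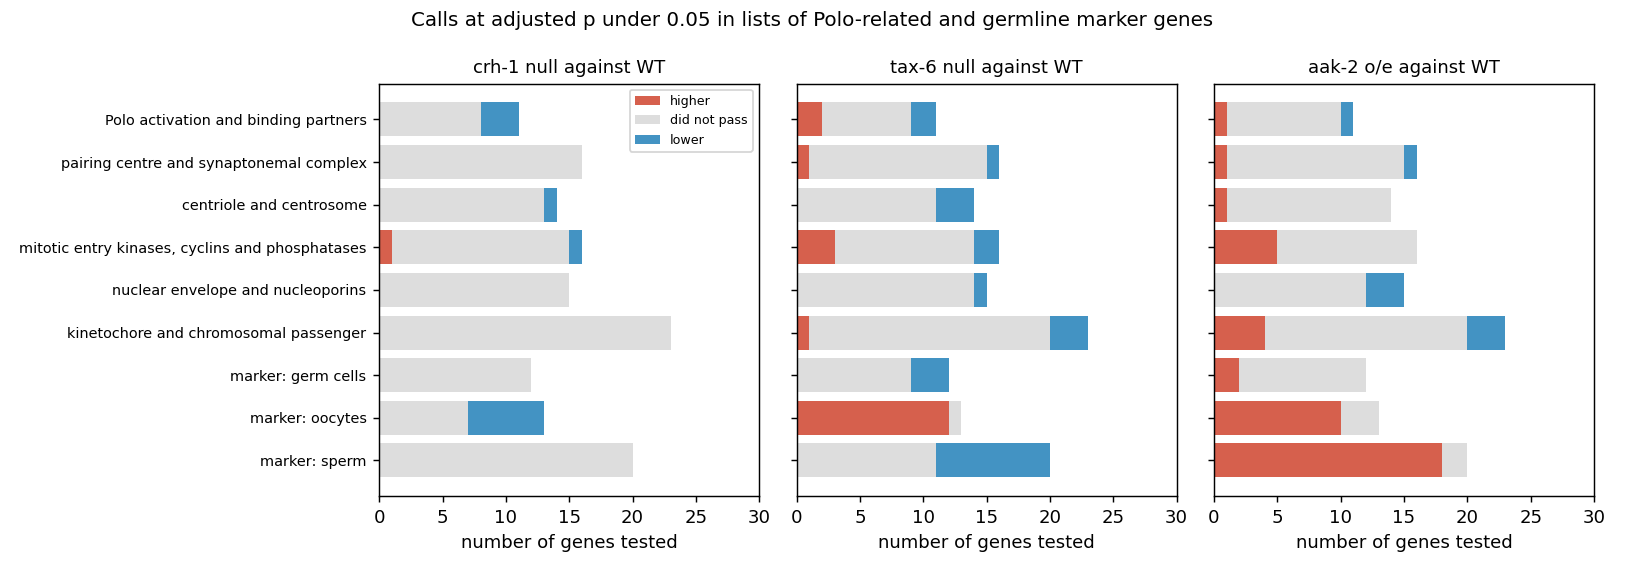
Number of tested genes (horizontal axis) that were higher, lower or did not pass an adjusted p of 0.05 against WT, in 6 lists of Polo-related genes and 3 lists of germline markers, for each altered strain. Sperm markers show 18 higher of 20 in aak-2 o/e and 9 lower of 20 in tax-6 null.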

How the data were processed

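The values are the log2 signals that the authors deposited, 22625 probe sets by 12 arrays. The submitters' processing notes name GCOS 1.4 and GCRMA, and the sources used here do not give the settings of GCRMA. Gene names come from the platform annotation, with symbols updated by gene ID to the WBcel235 gene table (20701 of 20766 matched). The 77 control probe sets were left out. A probe set was tested when it reached 4 on 3 or more arrays, which left 13396, and each of 10365 genes was represented by its brightest probe set. Because the annotation names no genome build, no coordinates are given.

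Tests used lmFit and eBayes of limma 3.58.1 under R 4.3.3 (all 12 arrays in the model, 1 mean per strain, two-sided, 8 residual and 3.63 prior degrees of freedom), with Benjamini-Hochberg adjustment over all probe sets tested at 0.05; the procedure was tested on simulated data. The replicates are separate pools of worms, and the number of arrays limits the precision. The members, gene lists, neighbour rule and alternatives were chosen with earlier results of these data known. Genes were named by rule: all members; the 8 and 4 most alike genes; tested neighbours; per list and strain the 2 called genes of smallest adjusted p outside the WT range; and air-1, spat-1, cdk-1, zyg-1, spd-2, mex-5, mex-6, chk-2 and syp-1. math-20, F52C6.3, cya-2 and the tested run were named after their values were seen. Same-numbered replicates did not deviate together: of 18 pairs across strains, 1 correlated over 0.1. Of 36 pairs with different numbers, 13 did, with r up to 0.281. Some arrays thus deviated together across strains, and a block by replicate number does not take this up. Alternatives were other scalings, no filter or a stricter filter, array weights, a trended and robust prior, a replicate block, only the strains compared, the mean of a gene's probe sets, a wider gap and each array left out in turn; the other probe set of plk-1 and plk-2 was added after seeing the data.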

Additional observations from a re-analysis of the deposited data

How the results depend on the processing

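The difference between plk-2 in aak-2 o/e and in tax-6 null kept its call under all 10 alternatives and without any single array (0.56 to 0.65). The counts of genes called against WT stayed within 1.5 times (crh-1 null 1559 to 3115, tax-6 null 3952 to 5539, aak-2 o/e 2716 to 4391). With a gap of 2, which can only lower them, the counts of genes at the floor were 2 (aak-2 o/e), 14 (crh-1 null), 1 (tax-6 null) and 2 (WT).

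With the replicate block plk-2 in tax-6 null against WT stayed at -0.4 (adjusted p = 0.0239), and the block changed no call of plk-1 or plk-2. Without the filter plk-1 in aak-2 o/e against crh-1 null kept its size, 0.38, and lost its call, and it ran from 0.28 to 0.45 without single arrays. The other probe set, added after seeing the data, moved calls of plk-2 to 0.36 (aak-2 o/e against WT) and 0.39 (aak-2 o/e against crh-1 null), both passing, and to -0.23 (tax-6 null against WT) and -0.19 (tax-6 null against crh-1 null), neither passing. It took plk-1 in aak-2 o/e against tax-6 null to 0.29, and the mean of both probe sets to 0.25, both passing. The cause was not tested.

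Signs turned only where no call was made, among the members and named genes. Without single arrays plk-2 in crh-1 null ran from -0.030 to 0.15 (-0.037 on the other probe set) and plk-1 in tax-6 null from -0.15 to 0.032. The same ranges were, for air-1 in aak-2 o/e, from -0.054 to 0.12; for spat-1 in crh-1 null, from -0.093 to 0.0049; and for spd-2 in tax-6 null, from -0.395 to 0.0026. For zyg-1 they ran from -0.14 to 0.18 in aak-2 o/e and, in crh-1 null, from -0.16 to 0.16, and for syp-1 from -0.15 to 0.12 in crh-1 null and, in tax-6 null, from -0.53 to 0.46. With array weights syp-1 changed by 0.032 in crh-1 null and 0.34 in tax-6 null, and zyg-1 by -0.040 in aak-2 o/e. zyg-1 changed by 0.015 in crh-1 null with quantile normalization and by -0.33 in aak-2 o/e with the mean of its probe sets. Over all alternatives 0 to 4 Polo partner genes were lower in crh-1 null, 2 to 5 neighbours of plk-3 were lower in aak-2 o/e, sperm markers gave 17 to 19 rises there and oocyte markers 8 to 11, while germ cell markers in tax-6 null went from 0 to 5 falls and, without replicate 1 of that strain, gave 2 rises and 2 falls. Signals below 4 limit what can be said of chk-2, tax-6 and the level of plk-3 in aak-2 o/e.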
